A study of Mus musculus with 15 samples.

Results

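Transcripts of 10 histone acetyltransferase genes were followed across 15 RNA-seq libraries of cultured primary mouse hippocampal neurons: Crebbp, Ep300, Kat2a, Kat2b, Kat5, Kat6a, Kat6b, Kat7, Kat8 and Hat1. They were chosen by symbol, for the enzyme they encode, from the 24498 gene rows of the deposited count table, and all 10 had enough counts to be tested among 15075 genes. Neurons that had differentiated for 7 days were kept for 24 h in 5 mM acetate or in its vehicle, neurobasal medium, each combined with 20 µM of an inhibitor of ACSS2 or with its solvent DMSO. The 4 groups were DMSO vehicle (4 libraries), DMSO acetate (4), inhibitor vehicle (3) and inhibitor acetate (4), and the question was how acetate acts on expression with and without ACSS2 activity. All groups shared the supplemented neurobasal medium. The sources used here give no strain, genotype or age of the animals, nor whether replicates were separate cultures, so p-values measure only the spread between these libraries.

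Histone acetyltransferases move an acetyl group from acetyl-CoA onto lysines of histones, which loosens the contact of histones with DNA and creates docking sites for bromodomain proteins. ACSS2 makes acetyl-CoA from acetate and is found in the nucleus of neurons, where it can supply these enzymes. The members fall into families: the coactivators CBP (Crebbp) and p300 (Ep300); GCN5 (Kat2a) and PCAF (Kat2b), the catalytic subunits of the SAGA and ATAC complexes; the MYST enzymes TIP60 (Kat5), MOZ (Kat6a), MORF (Kat6b), HBO1 (Kat7) and MOF (Kat8); and HAT1, which acetylates newly made histone H4 before it is placed on DNA. CBP is known in the hippocampus for its part in memory, as a partner of the transcription factor CREB.

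Depth was 19688231 to 39234799 gene counts per library. The 14 pan-neuronal markers summed to 6171 to 9302 CPM, that is, counts scaled to library size, in vehicle and 11918 to 14394 in acetate under DMSO, and 7098 to 9770 in vehicle and 10907 to 12432 in acetate under the inhibitor. Of markers of other cell types, 6 of 10 for astrocytes, 7 of 9 for the oligodendrocyte lineage, 5 of 8 for vessel cells (1 rose) and 6 of 7 for meninges fell with acetate alone. The summed CPM of the 9 oligodendrocyte markers did not follow this count, at 284 to 879 in vehicle and 706 to 991 in acetate under DMSO. All 11 tested microglia and macrophage markers fell with acetate without inhibitor and all 11 fell with it, and their sum was 131 to 647 CPM in vehicle and 31.0 to 51.3 in acetate under DMSO, and 25.4 to 523 in vehicle and 21.7 to 62.4 in acetate under the inhibitor. The microglial markers Cx3cr1, Itgam, P2ry12 and Ptprc each had 1 library at 0 counts, in an acetate group. A non-neuronal score, the mean log2 CPM of 5 marker lists (astrocytes, oligodendrocyte lineage, microglia, vessel cells and meninges), averaged 4.57 ± 0.64 (SD, n = 4) in vehicle and 2.496 ± 0.06 (n = 4) in acetate under DMSO, and 3.81 ± 1.37 (n = 3) in vehicle and 2.34 ± 0.15 (n = 4) in acetate under the inhibitor. DMSO vehicle 1 (3.61) and inhibitor vehicle 2 (2.25) stood below the other vehicle libraries (4.44 to 4.96), and values without both are given beside several results below. In bulk RNA, fewer cells of a type and less RNA per cell cannot be told apart, and the part of the cell mixture in the results below was not tested except where a value is given.

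Per kilobase of annotated exon (GENCODE M21, GRCm38, the assembly also called mm10), the members spanned a wide range of levels. Averaged over the 15 libraries, Kat2a was highest at 46.6 CPM per kb (37.7 to 57.0), followed by Kat5 at 25.8 (22.3 to 30.9) and Kat7 at 11.1 (10.1 to 13.1). These 3 ranges did not overlap. Kat8 at 7.74 (6.94 to 8.45) and Hat1 at 6.58 (4.83 to 8.41) overlapped; Crebbp at 3.55 (2.60 to 5.93) overlapped Hat1, and Kat6a at 3.35 (2.79 to 4.001) overlapped Crebbp. Kat6b at 1.99 (1.54 to 2.51), Ep300 at 1.55 (1.17 to 1.90) and Kat2b at 1.27 (0.81 to 1.85) were the lowest, and each overlapped its neighbour in that order. Kat2b rested on 86 to 277 counts per library, the fewest of the members. The summed CPM of the 10 members was 469 ± 12 (SD, n = 4) in vehicle and 500 ± 8 (n = 4) in acetate under DMSO, and 518 ± 36 (n = 3) in vehicle and 504 ± 20 (n = 4) in acetate under the inhibitor.

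**Figure D1:**
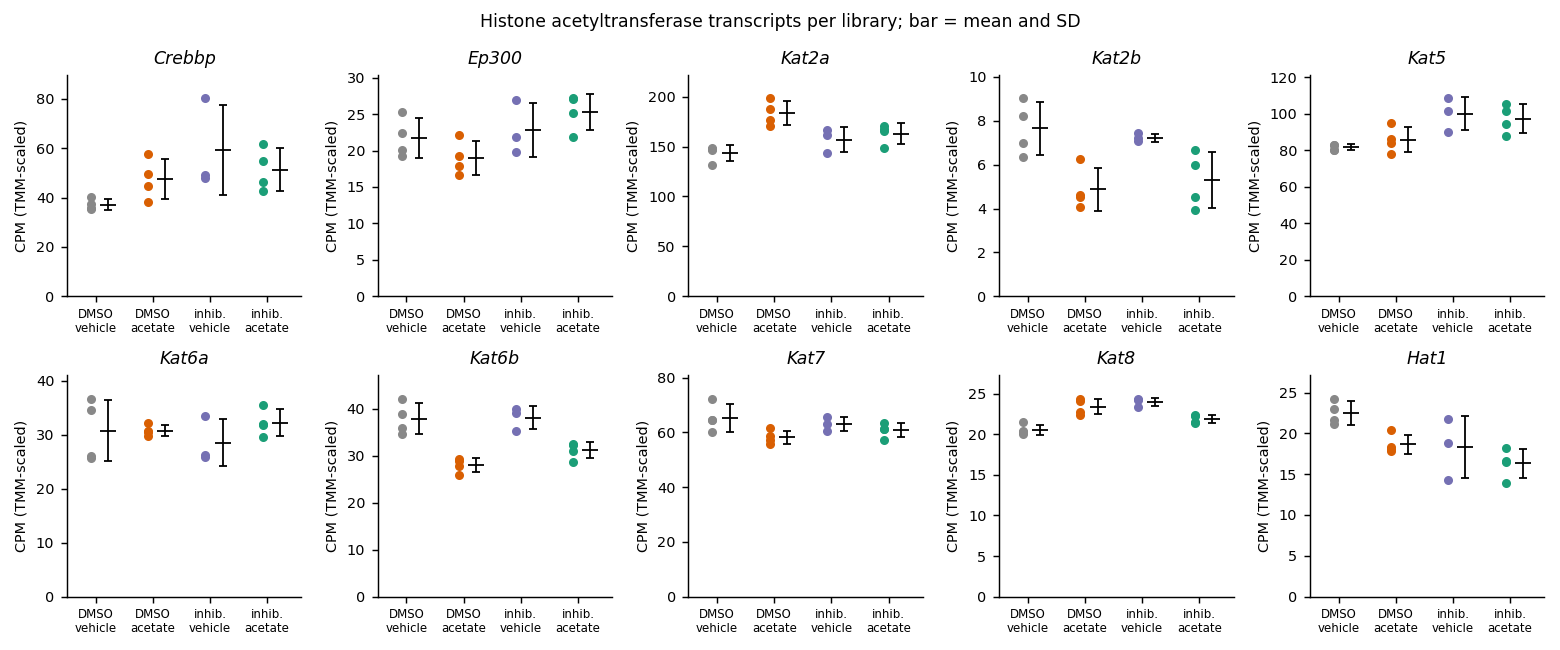
TMM-scaled CPM of each member (vertical axis, starting at 0) in every library of the 4 groups (horizontal axis); dots are libraries and the bar beside them is the mean and SD. Kat2a and Kat8 are higher and Kat2b, Kat6b and Hat1 lower in all 4 DMSO acetate libraries than in all 4 DMSO vehicle libraries.

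With acetate and no inhibitor, 2 of the 10 members rose (Kat2a and Kat8) and 3 fell (Kat2b, Kat6b and Kat7) at a Benjamini-Hochberg adjusted p under 0.05 in edgeR's quasi-likelihood test over all genes. Among all tested genes 23.7% rose and 27.5% fell, so the members' counts lie near the background. The libraries of the groups did not overlap for 2 members that were higher (Kat2a and Kat8, against 22.1% of all genes) and 3 that were lower (Kat2b, Kat6b and Hat1, against 23.3%). The members' median log2 fold was -0.08, and that of all genes was -0.03. With the inhibitor present, acetate was followed by a fall of 1 member (Kat6b) and a rise of 0, where 20.6% of all genes fell and 14.5% rose; 6 and 2 members had an unadjusted p under 0.05 without and with inhibitor, as had 57.4% and 44.8% of all genes. Libraries did not overlap for 3 members that were lower (Kat2b, Kat6b and Kat8) and 0 that were higher, each beside 16.4% of all genes. Both acetate comparisons touch the cell mixture described above. With the score added to the fit as a covariate, 0 members rose and 1 fell (Hat1, -0.54, edgeR adjusted p = 0.0334) without inhibitor. Of all genes 1181 rose and 957 fell in that comparison. With the inhibitor 0 members rose and 1 fell (Crebbp, -0.58, edgeR adjusted p = 0.0228), where 773 of all genes rose and 990 fell. Calls thus became fewer among all genes as well.

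The part of the acetate response that the inhibitor changed was tested as the difference of the log2 folds with and without it. No member passed in edgeR (0 of 10, with 3 at an unadjusted p under 0.05, beside 20.7% of all genes). Few genes passed in edgeR: 0.0133% had a higher and 0.00663% a lower fold with the inhibitor. In DESeq2 1 member, Kat8, passed with a lower fold, beside 263 genes with a higher and 716 with a lower fold. The inhibitor itself, without acetate, was followed by a rise of 2 members (Crebbp and Kat8; 3.47% of all genes rose) and a fall of 0 (1.99% fell). The libraries did not overlap for 3 members that were higher (Crebbp, Kat5 and Kat8; 9.34% of genes) and 0 that were lower (7.36%). In the presence of acetate, 0 members passed in edgeR with the inhibitor (2.36% of genes rose and 3.42% fell). An unadjusted p under 0.05 was found for 3 members, beside 22% of all genes. In DESeq2 1 member, Ep300, rose, beside 589 genes that rose and 868 that fell. Libraries did not overlap for 1 member that was lower (Kat8, beside 12.4% of genes) and 0 that were higher (8.96%). This gap of Kat8 was absent under upper-quartile scaling. The comparisons that use the same group share its libraries.

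**Figure D2:**
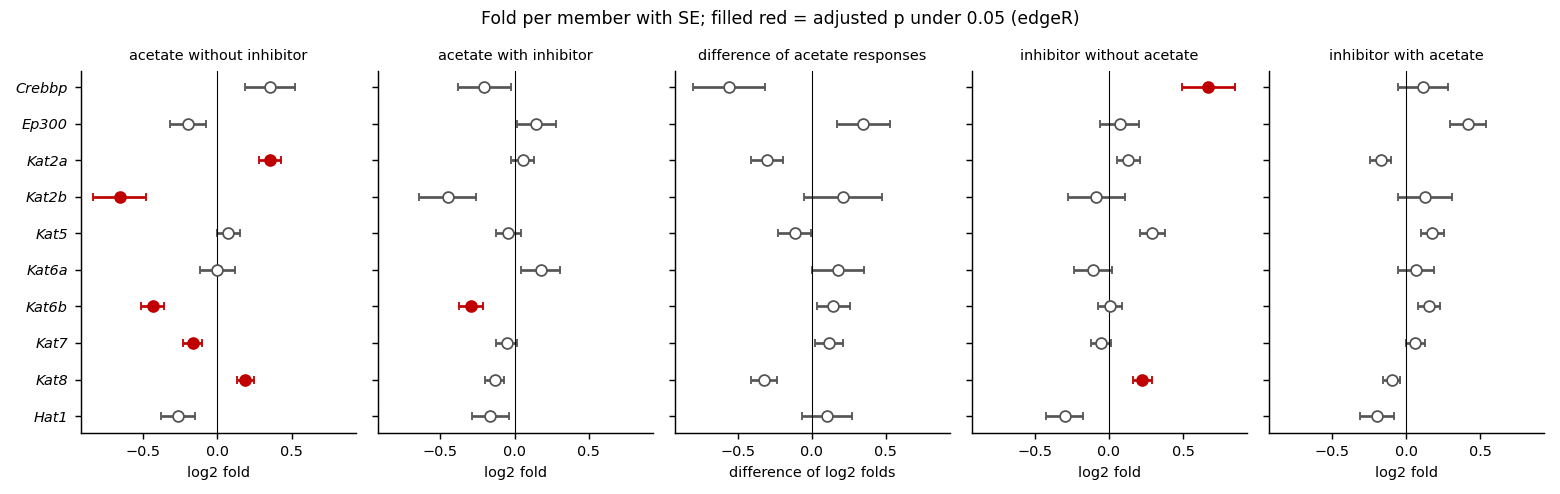
Log2 fold (horizontal axis; in the middle panel, the difference of 2 log2 folds) of each member (vertical axis) in the 5 comparisons, with its SE; filled red points have an adjusted p under 0.05 in edgeR. Kat6b is filled in both acetate panels, and no member is filled in the middle panel or the last one.

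The stretches before the annotated starts of members that changed with acetate are shown because CREB, which recruits CBP and p300, binds the short motif TGACG, searched here on both strands. They come from the RefSeq promoter table (GRCm38.p6), in which 9 of the 10 members matched (Kat6a did not). They hold only bases outside the GENCODE exons of the same gene, and exons of other genes were not checked. The stretches shown for Kat2b and Kat6b lie inside the annotated gene, which begins at base 53566861 and 21481434. Capitals mark the motif or its reverse complement. Each is read 5′ to 3′ on the gene's strand, and 1 stretch is shown for a gene with more than 1 annotated start; the second stretches of Kat2b and Kat8 hold 0 motifs.
Kat2a, chr11:100712468-100712617, minus strand: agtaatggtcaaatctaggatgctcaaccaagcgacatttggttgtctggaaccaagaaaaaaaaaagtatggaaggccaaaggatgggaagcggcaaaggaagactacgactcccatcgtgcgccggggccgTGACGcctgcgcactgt
Kat2b, chr17:53566916-53566970, plus strand: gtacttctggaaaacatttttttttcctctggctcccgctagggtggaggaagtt
Kat6b, chr14:21499620-21499769, plus strand: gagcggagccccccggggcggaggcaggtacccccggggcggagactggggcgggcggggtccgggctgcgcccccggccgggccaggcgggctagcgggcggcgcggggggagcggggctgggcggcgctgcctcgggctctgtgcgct
Kat7, chr11:95310247-95310396, minus strand: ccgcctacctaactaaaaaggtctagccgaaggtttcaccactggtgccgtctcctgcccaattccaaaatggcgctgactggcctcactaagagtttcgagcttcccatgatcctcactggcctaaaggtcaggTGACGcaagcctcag
Kat8, chr7:127912366-127912515, plus strand: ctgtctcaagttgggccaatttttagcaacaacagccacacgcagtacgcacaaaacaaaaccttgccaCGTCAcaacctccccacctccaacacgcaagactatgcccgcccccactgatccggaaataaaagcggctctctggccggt
Kat2a, Kat7 and Kat8 hold 1 short motif each in the stretch shown, and Kat6b and Kat2b hold 0; the longer window of Kat2b, 250 bases with exons included, has it. In windows of 250 bases before each start, 6 of the members' 13 windows had the short motif, against 17.8% of all 32851 windows. By gene, 5 of the 9 matched members had it in at least 1 window, for which no share over all genes was computed. Windows of the same gene can share bases, as those of Kat6b do, so the 13 are not independent, and enrichment was not tested. The full palindrome TGACGTCA was in 0 of the 13 windows and in 1.55% of all windows; each of these also holds the short motif. A match is a description of letters and not a measured binding site, and members that rose (Kat2a, Kat8) and members that fell (Kat7, Kat2b) have it in a window. Kat5, which passed in neither acetate comparison, has it in both of its windows.

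Crebbp encodes CBP (chromosome 16, bases 4081328 to 4213997, GRCm38). It stood at 40.3, 35.2, 35.7 and 37.4 CPM in DMSO vehicle and at 38.3, 44.5, 49.5 and 57.8 in DMSO acetate. In inhibitor vehicle it stood at 48.1, 80.3 and 49.2, and in inhibitor acetate at 54.8, 42.7, 46.1 and 61.9. DMSO vehicle was the lowest and tightest group, acetate libraries overlapped it by 1 value, and all inhibitor vehicle libraries were above it. The log2 fold with acetate was 0.35 (SE 0.17, edgeR adjusted p = 0.0878), and with the inhibitor present it was -0.20 (SE 0.18, adjusted p = 0.399). The inhibitor without acetate was followed by a rise of 0.67 (SE 0.18, edgeR adjusted p = 0.043). That rise rested partly on inhibitor vehicle 2, the library with 80.3 CPM, the score of 2.25 and the highest share of reads on no annotated gene (17.6%, against 12.7% to 16.8% elsewhere): without this library the fold was 0.39 and the adjusted p 0.153, and in 9 of 15 fits that left out 1 library it missed the threshold, as it did with only both groups in the fit (0.65, adjusted p = 0.229). With only both DMSO groups in the fit, the acetate fold of Crebbp was 0.34 (edgeR adjusted p = 0.0306). Without both vehicle libraries that are low in non-neuronal markers, the acetate fold of Crebbp was 0.39 with an adjusted p of 0.0113, and the inhibitor fold 0.43 with an adjusted p of 0.0923. The acetate fold with the inhibitor present then turned from -0.20 to 0.08 (adjusted p = 0.654). With the non-neuronal score in the fit, the fold with acetate alone turned to -0.22 (adjusted p = 0.457).

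Ep300 encodes p300, the paralogue of CBP. It stood at 22.3, 25.3, 19.2 and 20.1 CPM in DMSO vehicle, at 17.9, 16.7, 19.2 and 22.1 in DMSO acetate, at 19.8, 27.0 and 21.9 in inhibitor vehicle and at 27.0, 21.9, 25.1 and 27.2 in inhibitor acetate. The groups overlapped, with the lowest value in DMSO acetate and the highest in inhibitor acetate. Its log2 fold with acetate was -0.20 (SE 0.12, adjusted p = 0.176) without inhibitor and 0.15 (SE 0.13, adjusted p = 0.411) with it, neither past the threshold; the second was 0.28 (adjusted p = 0.0793) without both low-marker vehicle libraries and turned to -0.03 (adjusted p = 0.916) with the non-neuronal score in the fit. Inhibitor acetate against DMSO acetate gave 0.42 (SE 0.12, edgeR adjusted p = 0.0547). This comparison passed in DESeq2 (adjusted p = 0.0156), without both low-marker vehicle libraries (adjusted p = 0.0104) and with the non-neuronal score in the fit (adjusted p = 0.019).

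The ratio of Crebbp to Ep300 counts within a library does not depend on the scaling between libraries. It was added after the values were seen, as were the Kat2a to Kat2b and Kat6a to Kat6b ratios below. These ratios use the same counts as the folds and are no independent evidence. The log2 ratio of Crebbp to Ep300 averaged 0.78 in vehicle and 1.32 in acetate under DMSO, and 1.34 in vehicle and 1.01 in acetate under the inhibitor. Acetate without inhibitor went with a ratio higher by 0.54, and inhibitor without acetate with one higher by 0.56; in both the libraries did not overlap (two-sided exact permutation p = 0.0286 each, the smallest the design allows, adjusted p = 0.0686 over 12 such tests). With the inhibitor the acetate difference was -0.33 (exact permutation p = 0.0857, adjusted p = 0.147), and the libraries overlapped. Without both low-marker vehicle libraries the 3 differences were 0.56, 0.47 and -0.21, the second with the smallest p its 3 against 2 libraries allow (0.1, exact permutation).

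**Figure D3:**
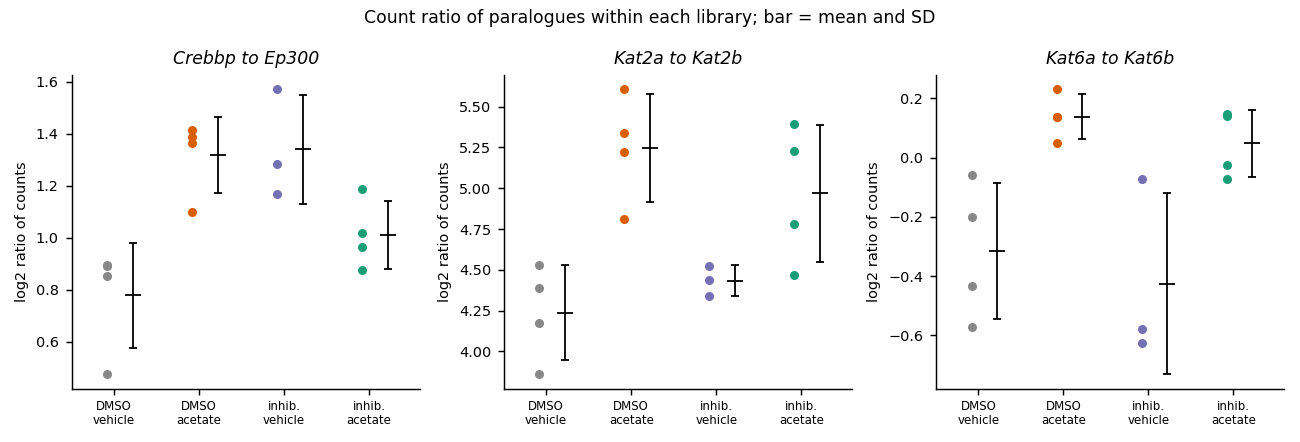
Log2 ratio of the counts of 3 paralogue pairs (vertical axis) in each library of the 4 groups (horizontal axis), with the mean and SD beside the dots. The Kat2a to Kat2b ratio is higher in all DMSO acetate libraries than in all DMSO vehicle libraries, and the Kat6a to Kat6b ratio is higher in both acetate groups than in their vehicle groups. Under the inhibitor the Kat6a to Kat6b groups nearly touch (-0.0726 in vehicle and -0.0721 in acetate).

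Kat2a encodes GCN5 (chromosome 11, bases 100704746 to 100712465, GRCm38, minus strand), the more abundant catalytic subunit of SAGA in these libraries. It stood at 149, 131, 147 and 147 CPM in DMSO vehicle, and at 198, 188, 170.5 and 177 in DMSO acetate. In inhibitor vehicle it stood at 162, 166 and 143, and in inhibitor acetate at 166, 167, 148 and 171. All DMSO acetate libraries were above all others except that 1 of them, at 170.5, fell just below the top inhibitor acetate library. Kat2a rose with acetate by 0.36 on the log2 scale (SE 0.07, edgeR adjusted p = 0.00105), and kept an adjusted p of 0.000661 to 0.00462 when any single library was left out. With the inhibitor the fold was 0.05 (SE 0.08, adjusted p = 0.617), or 0.10 (adjusted p = 0.357) without both low-marker vehicle libraries and -0.03 (adjusted p = 0.86) with the score in the fit, and the difference between the folds, -0.30 (SE 0.11, adjusted p = 0.128), did not pass.

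Kat2b encodes PCAF, the paralogue of GCN5. It stood at 8.24, 9.03, 6.35 and 7.00 CPM in DMSO vehicle, at 4.05, 4.63, 4.54 and 6.27 in DMSO acetate, at 7.43, 7.20 and 7.07 in inhibitor vehicle and at 6.01, 3.95, 6.68 and 4.55 in inhibitor acetate. Acetate libraries were below vehicle libraries with and without inhibitor, without overlap. It fell with acetate by 0.66 on the log2 scale without inhibitor (SE 0.18, edgeR adjusted p = 0.00652), with a fold of -0.45 (SE 0.19, adjusted p = 0.0814) in its presence. The difference between the folds was 0.21 (SE 0.26, adjusted p = 0.698). The Kat2a to Kat2b log2 ratio averaged 4.24 in DMSO vehicle and 5.25 in DMSO acetate, a difference of 1.01 (two-sided exact permutation p = 0.0286, the smallest possible, adjusted p = 0.0686), and 4.43 and 4.97 with the inhibitor, a difference of 0.53 (exact permutation p = 0.114, adjusted p = 0.171). The first difference restates the rise of Kat2a and the fall of Kat2b in the same libraries. Without both low-marker vehicle libraries the differences were 0.99 and 0.58 (exact permutation p = 0.0571 and 0.133). The smallest p possible was then 0.0286 and 0.0667.

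Kat6b encodes MORF (chromosome 14, bases 21481434 to 21672478, GRCm38, plus strand). It stood at 36.0, 42.2, 38.8 and 34.6 CPM in DMSO vehicle and at 28.8, 25.9, 29.4 and 27.9 in DMSO acetate. In inhibitor vehicle it stood at 39.1, 35.3 and 40.0, and in inhibitor acetate at 32.2, 31.0, 32.6 and 28.8. No acetate library reached the vehicle libraries of its pair of groups. Kat6b fell with acetate by 0.44 on the log2 scale without inhibitor (SE 0.08, edgeR adjusted p = 0.000394) and by 0.29 with it (SE 0.08, edgeR adjusted p = 0.0141). The second fall missed the threshold without inhibitor vehicle 1 (-0.27, adjusted p = 0.0604) and without inhibitor vehicle 3 (-0.25, adjusted p = 0.0706), and with the non-neuronal score in the fit (-0.18, adjusted p = 0.267), and passed without both low-marker vehicle libraries (-0.34, adjusted p = 0.00392). The difference between the folds, 0.15 (SE 0.11, adjusted p = 0.499), did not pass.

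Kat6a, which encodes the paralogue MOZ, ranged from 25.6 to 36.7 CPM in vehicle and 29.8 to 32.3 in acetate under DMSO, and 25.9 to 33.5 in vehicle and 29.5 to 35.5 in acetate under the inhibitor. Within both vehicle groups the values fell into high and low libraries: DMSO vehicle 1 and 2 (34.5 and 36.7) and inhibitor vehicle 2 (33.5) stood above the rest (25.6 to 26.2). None of its 5 comparisons passed; the log2 fold with acetate was -0.00055 (SE 0.12, adjusted p = 0.997) without inhibitor and 0.18 (SE 0.13, adjusted p = 0.312) with it, the latter 0.31 with an adjusted p of 0.0426 without the low-marker vehicle libraries. The Kat6a to Kat6b log2 ratio was higher in acetate by 0.45 without inhibitor and by 0.47 with it, without overlap (two-sided exact permutation p = 0.0286 each, the smallest possible, adjusted p = 0.0686). Under the inhibitor the groups nearly touched, at -0.0726 in inhibitor vehicle 2 and -0.0721 in inhibitor acetate 2. The low-marker libraries, DMSO vehicle 1 (-0.058) and inhibitor vehicle 2, had the highest ratios of their vehicle groups. Without both, the differences were 0.54 and 0.65 (exact permutation p = 0.0286 and 0.0667, each the smallest possible).

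Kat7 encodes HBO1, which acetylates histone H3 and H4 and takes part in the licensing of replication origins. It stood at 72.3, 60.1, 64.5 and 64.5 CPM in DMSO vehicle and at 58.5, 55.7, 61.4 and 57.1 in DMSO acetate. The groups overlapped by 1 library, and the highest value was that of DMSO vehicle 1. Kat7 fell with acetate by 0.17 on the log2 scale (SE 0.06, edgeR adjusted p = 0.0404). The call was lost without DMSO vehicle 1 (-0.13, adjusted p = 0.0946), in 5 of the 15 fits that left out 1 library, and without both low-marker vehicle libraries (-0.11, adjusted p = 0.136). It was lost as well with DESeq2 size factors (adjusted p = 0.0568), without a filter (adjusted p = 0.0767) and with only both groups in the fit (adjusted p = 0.0552). With the inhibitor its libraries ran from 60.3 to 65.5 in vehicle and from 57.1 to 63.2 in acetate, with a fold of -0.05 (SE 0.07, adjusted p = 0.583).

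Kat8 encodes MOF, which acetylates histone H4 at lysine 16 in the MSL complex and acts also in the NSL complex. It stood at 20.4, 20.2, 21.5 and 20.1 CPM in DMSO vehicle and at 22.8, 24.4, 22.4 and 24.1 in DMSO acetate. In inhibitor vehicle it stood at 24.4, 23.4 and 24.2, and in inhibitor acetate at 21.5, 21.5, 22.3 and 22.3. The libraries of the groups did not overlap in any of the 4 comparisons of pairs of groups, although the whole range over 15 libraries was 1.22-fold. Kat8 rose with acetate by 0.19 on the log2 scale (SE 0.06, edgeR adjusted p = 0.0142), a call lost only without DMSO vehicle 4 (0.17, adjusted p = 0.0527) among the fits that left out 1 library. It was also lost under upper-quartile scaling (0.13, adjusted p = 0.0712), with at least 10 counts in every library (0.15, adjusted p = 0.0552) and with only both groups in the fit (0.18, adjusted p = 0.0618). The inhibitor without acetate was followed by a rise of 0.23 (SE 0.06, edgeR adjusted p = 0.0497), which missed the threshold in all 15 fits that left out 1 library, with adjusted p of 0.0576 to 0.135 and folds of 0.21 to 0.25, and without both low-marker vehicle libraries (0.24, adjusted p = 0.103). With both agents the fold against inhibitor alone was -0.13 (SE 0.06, adjusted p = 0.113). The difference of the acetate folds, -0.32 (SE 0.09), was the member with the smallest p in that test (unadjusted p = 0.00191, edgeR adjusted p = 0.0724, DESeq2 adjusted p = 0.0289). Its size was -0.34 without both low-marker vehicle libraries and -0.33 with the non-neuronal score in the fit. The exons of Kat8 overlap those of Prss8, which had 0 to 4 counts per library.

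Kat5 encodes TIP60, an enzyme of the DNA damage response as well as of transcription. It ranged from 80.1 to 83.1 CPM in vehicle and 78.1 to 94.7 in acetate under DMSO, and 90.2 to 108 in vehicle and 87.6 to 105 in acetate under the inhibitor. Inhibitor vehicle libraries were above all DMSO vehicle libraries. The log2 fold of the inhibitor was 0.29 without acetate (SE 0.08, edgeR adjusted p = 0.0511, DESeq2 adjusted p = 0.0223) and 0.18 with it (SE 0.08, adjusted p = 0.187), and the acetate folds were 0.07 (adjusted p = 0.443) and -0.04 (adjusted p = 0.725). Its exons overlap those of Rnaseh2c on the other strand, and the sources used here do not give the strand setting of the counting. Rnaseh2c stood at 29.2 to 42.9 CPM in vehicle and 42.9 to 56.1 in acetate under DMSO, and 36.2 to 38.1 in vehicle and 29.9 to 36.4 in acetate under the inhibitor.

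Hat1 encodes the enzyme of new histone H4, which is needed where DNA is replicated. It stood at 24.3, 23.0, 21.6 and 21.1 CPM in DMSO vehicle, at 17.9, 18.1, 20.4 and 18.3 in DMSO acetate, at 14.3, 21.8 and 18.8 in inhibitor vehicle and at 16.5, 16.7, 18.2 and 13.9 in inhibitor acetate. DMSO vehicle was above DMSO acetate without overlap, and the inhibitor groups held the lowest values. The log2 fold with acetate was -0.27 (SE 0.11, edgeR adjusted p = 0.0621) without inhibitor and -0.17 (SE 0.12, adjusted p = 0.325) with it, and that of the inhibitor was -0.30 (SE 0.12, adjusted p = 0.15) without acetate. The first passed in 2 of the 15 fits that left out 1 library, with the score in the fit (-0.54, adjusted p = 0.0334) and under upper-quartile scaling (-0.33, adjusted p = 0.0253). It also passed with at least 10 counts in every library (-0.31, adjusted p = 0.0293) and with only both groups in the fit (-0.28, adjusted p = 0.0157). It missed the threshold in DESeq2 (adjusted p = 0.0566), without a filter (0.0872), with a replicate block (0.0642) and without both low-marker vehicle libraries (0.0609). The acetate fold with the inhibitor present was -0.02 (adjusted p = 0.897) without both low-marker vehicle libraries. The 7 dividing-cell markers, whose part was not tested, summed to 202 to 432 CPM in vehicle and 209 to 257 in acetate under DMSO, and 111 to 178 in vehicle and 130 to 201 in acetate under the inhibitor; 3 of them fell with acetate alone and 4 with inhibitor alone.

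**Figure D4:**
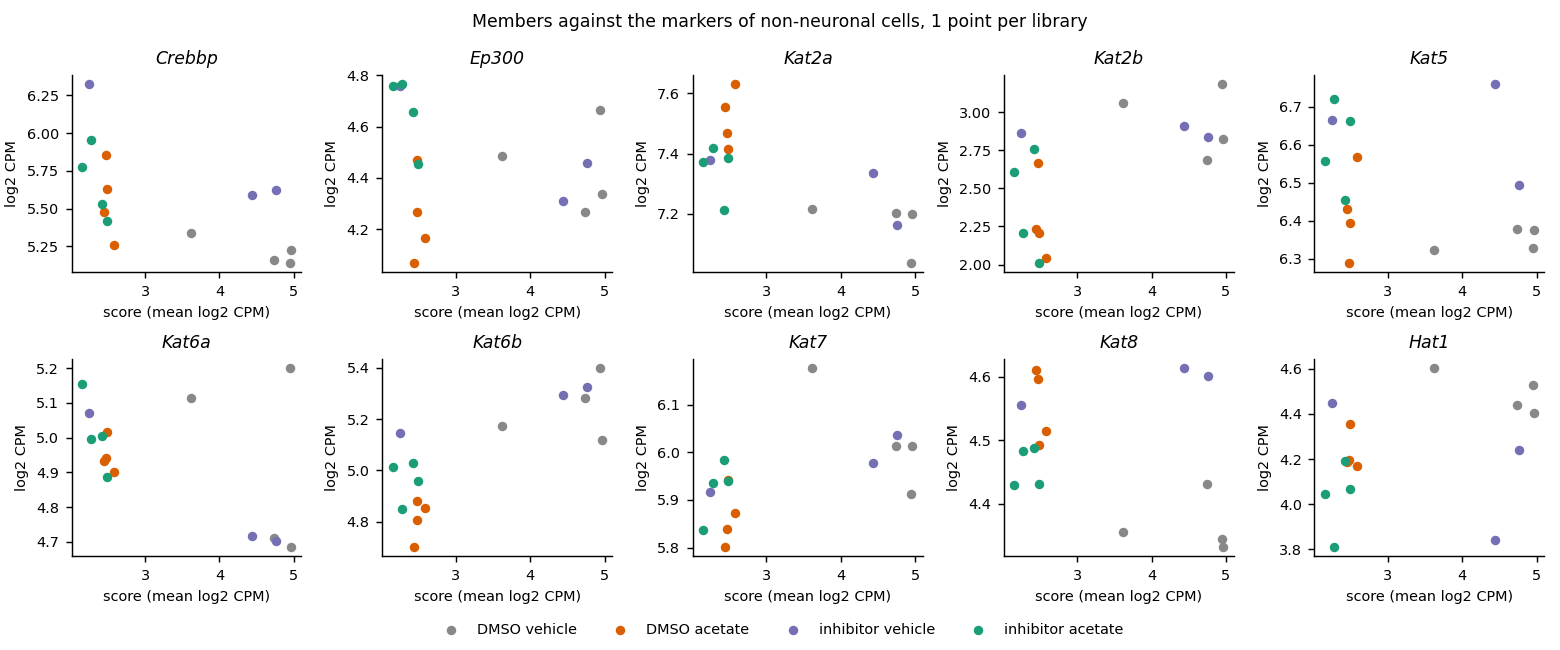
Log2 CPM of each member (vertical axis, not starting at 0) against the non-neuronal score of the library (horizontal axis, mean log2 CPM), 1 point per library coloured by group. The 8 acetate libraries and inhibitor vehicle 2 have low scores (2.15 to 2.58), and the other 6 vehicle libraries lie at 3.61 to 4.96.

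Scaling on the neuronal markers, which takes them as unchanged, moved the median of all genes to -0.91 with acetate alone and to -0.58 with the inhibitor present. All 10 members then fell with acetate alone, as did 13124 of all genes. Relative to that median Kat2a stood 0.39 higher, Crebbp 0.41 higher, Kat8 0.22 higher, Kat2b 0.62 lower and Kat6b 0.41 lower. In the main fit these distances from the median were, in the same order, 0.39, 0.39, 0.22, -0.63 and -0.40. Scaling shifts the folds of all genes by about the same amount, so the distances could hardly change and are no further check. In the fit with the non-neuronal score the acetate folds were 0.23 for Kat2a (adjusted p = 0.19), -0.74 for Kat2b (adjusted p = 0.0774), -0.29 for Kat6b (adjusted p = 0.116) and 0.22 for Kat8 (adjusted p = 0.19), none past the threshold. The 8 acetate libraries differed little in score, so the slope of this covariate rested mainly on the vehicle libraries.

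Genes of the complexes around the members were taken from 8 lists with 85 distinct tested genes. With acetate alone 14 rose and 34 fell (median log2 fold -0.16, against -0.03 for all genes, of which 23.7% rose and 27.5% fell), and 6 rose and 16 fell with the inhibitor present (median -0.06, against -0.03 for all genes, of which 14.5% rose and 20.6% fell); under scaling on neuronal markers 0 rose and 82 and 63 fell, and with the non-neuronal score in the fit 5 rose and 12 fell with acetate alone and 2 rose and 6 fell with the inhibitor present. Without both low-marker vehicle libraries 16 rose and 34 fell with acetate alone, beside 4269 and 4811 of all genes. In the same setting 14 rose and 18 fell with the inhibitor present, beside 3434 and 4064 of all genes. The main fit had 2180 and 3103 there, so calls grew among all genes as well. The difference of the folds passed for 0 of 85 in edgeR, while 3 were higher and 4 lower in DESeq2, 2 and 3 with the score in the fit, and 2 and 1 without both low-marker libraries. With the inhibitor and no acetate, 3 rose and 2 fell (3.47% and 1.99% of all genes), against 7 and 10 in DESeq2, 0 and 0 with only the groups compared in the fit, and 2 and 9 with the score. With the inhibitor in acetate, 2 rose and 4 fell (2.36% and 3.42% of all genes), against 9 and 6 in DESeq2, 10 and 7 with the score, and 12 and 8 both with only the groups compared and without both low-marker libraries. Counts of all genes under the other settings are given in the last section, and they shifted too.

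Scaffold and subunit genes of the MOZ, MORF and HBO1 complexes held 0 that rose and 7 of 9 that fell with acetate alone (27.5% of all genes fell). With the inhibitor present 4 of 9 fell (20.6% of all genes). Without both low-marker vehicle libraries 7 and 5 fell, beside 4811 and 4064 of all genes. With the non-neuronal score in the fit 4 and 0 fell, where 957 and 990 of all genes fell and 1181 and 773 rose. These counts of all genes apply to the lists below as well. Jade2, a scaffold of HBO1, fell by 1.81 on the log2 scale without inhibitor (SE 0.23, edgeR adjusted p = 4.36e-05) and by 1.26 with it (SE 0.24, edgeR adjusted p = 0.00185). Brpf3 fell by 0.78 and 0.43, Brpf1 by 0.45 and Brd1 by 0.32 without inhibitor, all scaffolds that tie MYST enzymes to chromatin. With the inhibitor Ing4, a reader of methylated histone H3, and Meaf6 fell by 0.32 and 0.23. Ing4 was itself higher by 0.48 in inhibitor vehicle than in DMSO vehicle (SE 0.08, edgeR adjusted p = 0.00857).

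In the SAGA and ATAC list 6 rose and 9 fell of 24 with acetate alone, and 3 rose and 4 fell with the inhibitor. With the non-neuronal score in the fit 2 rose and 2 fell, and 1 rose and 2 fell with the inhibitor. Atxn7l3, of the deubiquitinase module of SAGA, rose by 0.61 without and 0.50 with inhibitor. Supt3 rose by 0.71 and Taf6l by 0.46, while Yeats2, a subunit of ATAC, fell by 0.58 without inhibitor; Usp22, the ubiquitin protease of the module, rose by 0.55 and Taf12 fell by 0.47 with it. Csrp2bp, an older symbol for the acetyltransferase Kat14 of ATAC, fell by 0.57 without and 0.50 with inhibitor. In the TIP60 list 2 rose and 8 fell of 18, and 1 rose and 5 fell with the inhibitor. With the score in the fit 1 rose and 2 fell, and 0 rose and 2 fell with the inhibitor. Actl6b rose by 0.68 and 0.38 and its paralogue Actl6a fell by 0.71 without inhibitor; these are the neuronal and the progenitor form of an actin-related subunit. Epc1 fell by 0.44 and 0.42, Meaf6 fell by 0.27 without inhibitor, and Yeats4 fell by 0.31 and Ruvbl2 by 0.34 with it.

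The other lists were smaller. With the non-neuronal score in the fit, acetate alone gave 1 CBP and p300 partner that rose and 0 that fell. The same fit gave 1 and 1 for MSL and NSL subunits and 0 and 2 for HAT1 partners and chaperones. For the other proteins with acetyltransferase activity it gave 0 and 1. With the inhibitor present these were, in the same order, 1 and 0, 0 and 1, 0 and 0, and 0 and 1. Main-fit counts follow. Of 9 CBP and p300 partners 1 rose and 4 fell with acetate alone: Crtc1, a coactivator of CREB, rose by 0.49 and the factors Crem and Atf1 and the CBP-binding regulator Cited2 fell by 0.49, 0.49 and 0.52. With the inhibitor Crtc1 rose by 0.38, and Cited1, Crtc2 and Crtc3 fell by 0.67, 0.33 and 0.18. Of 11 MSL and NSL subunits 2 rose and 3 fell, and 1 rose with the inhibitor: Msl1, the scaffold of MSL, rose by 0.59 and 0.28, and Phf20 rose by 0.56 while Kansl3 and Hcfc1 fell by 0.38 and 0.39 without inhibitor. Asf1a, a chaperone of histones H3 and H4, fell by 0.40 and 0.26 as the 1 changed gene of 5 HAT1 partners and chaperones. Of 10 other proteins with reported acetyltransferase activity 1 rose and 4 fell without inhibitor (Ncoa1 rose by 0.54, Gtf3c4 fell by 0.49 and Naa40 by 0.25, beside Csrp2bp), and 0 rose and 1 fell with it.

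For each member the 3 genes with the smallest mean absolute difference in centred log2 CPM over the 15 libraries were listed from 11122 genes. Crebbp was followed most closely by Arid4a (0.055), Pnisr (0.078) and Pbrm1 (0.082), Ep300 by Secisbp2l (0.075), Dpy19l1 and Mga, and Kat2a by Sgsm3 (0.036), Farsa and Snrpa. Kat2b was followed by D16Ertd472e (0.11), Cpne3 and Kdm3a, Kat5 by Tspyl2 (0.054), Gabarapl1 and Pnpla6, Kat6a by Ddx6 (0.061), Rb1 and Csnk1a1, and Kat6b by Pitrm1 (0.055), Proser1 and Lpin2. Kat7 was followed by Ndel1 (0.043), Kansl2 and Araf, Kat8 by Lamtor5 (0.044), Tmem242 and Lmbrd1, and Hat1 by Rpa2 (0.068), Med7 and Psat1. No member was among the 3 nearest genes of another, and the nearest pair was Kat2a and Kat8 (0.11). The mean absolute deviation of a member from its own mean was 0.13 for Kat2a, 0.079 for Kat8 and 0.070 for Kat7. The distance of the pair exceeds the deviation of Kat8, so it does not show a shared profile. A gene that varies little, as Kat7 and Kat8 do, has small distances to other such genes.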

How the data were processed

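From primary hippocampal neurons of the mouse, total RNA was made into 15 strand-specific libraries using the NEBNext Ultra II Directional kit, as stated per the labels. Raw read counts per gene were deposited by the authors. Per the submitters' processing notes, the tools were STAR 2.5.2a, HTSeq 0.6.1p1 and DESeq2, on mm10; which annotation, counting mode and strand option were used was not stated (not given in the sources used here). The table ends with 5 lines that name no gene (38.9% to 47.4% of a library), left out of library sizes and tests.

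Groups came from the labels. The count test ran with edgeR 4.0.16 and limma 3.58.1 under R 4.3.3: default expression filter, TMM factors of 0.885 to 1.13 and 1 quasi-likelihood fit of all 15 libraries with a mean per group, Benjamini-Hochberg adjusted over 15075 genes (threshold 0.05; biological coefficient of variation 16.8%). The SE is the log2 fold divided by the square root of F. A prior count of 2 entered log2 CPM. Gene counts per library were 19688231 to 39234799; the 21 pairs of libraries within groups had a chi-square of 4.65 to 144 per gene, so none was a copy. Ratios were compared by exact permutation (SciPy 1.17.1). The fit was tested on simulated data. Exon lengths and positions came from GENCODE M21. Alternatives were other scalings, DESeq2 1.42.0, other filters, only the groups compared, a replicate block, the non-neuronal score as a covariate, and fits without single libraries or both low-marker vehicle libraries.

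The members, the lists and the rule for named genes were chosen with earlier results of these data known, and the lists are no independent evidence of a direction. The rule names all members, up to 4 genes with the smallest p per list in both acetate comparisons, and the 3 genes most like each member. One of the 8 lists is not reported by gene here.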

Additional observations from a re-analysis of the deposited data

Results flagged for a closer look

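In 33 sets of values screened (10 members and their sum, in the 3 groups of 4 libraries), 3 held a library far from the others by Dixon's gap; chance alone gives such a library in about 1 of 20 sets. Kat2a in DMSO vehicle 2 stood at 131 CPM, below the other 3 (147 to 149). Hat1 in DMSO acetate 3 stood at 20.4 CPM, above the other 3 (17.9 to 18.3). The summed level of the 10 members in DMSO vehicle 1, a library low in non-neuronal markers, was 487 CPM, above the other 3 (460.3 to 464).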

How the results depend on the processing

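Of 1240 member values recomputed, 1096 kept their direction and side of the threshold, 58 lost a call, 39 gained 1, 5 reversed and 42 moved in an uncalled sign; the causes were not tested. Scaled on neuronal markers, with acetate alone 0 members rose and 10 fell (149 and 13124 of all genes), with Crebbp at -0.50, Kat2a -0.52, Kat5 -0.81 and Kat8 -0.69 turning downward; with the inhibitor present 8 members fell (172 and 9664 of all genes), with Kat2a at -0.49. The difference then had 0 genes lower; inhibitor alone had 0 members higher (18 and 55 of all genes), and inhibitor with acetate 51 and 10 genes. With the non-neuronal score in the fit, acetate alone gave 0 members higher and 1 lower (1181 and 957 genes), acetate with inhibitor 773 and 990 genes, the difference 271 and 588, inhibitor alone 1 member lower (1187 and 1046 genes) and inhibitor with acetate 1 member higher (886 and 1402 genes). DESeq2 gave 1 member lower for the difference (263 and 716 genes), 954 and 682 genes for inhibitor alone, and 1 member higher with 589 and 868 genes for inhibitor with acetate. Without both low-marker vehicle libraries, 1 member rose and 3434 genes rose with acetate and inhibitor, the difference had 237 and 417 genes, 0 members rose with inhibitor alone, and 1 member rose with inhibitor and acetate (1050 and 1637 genes). With only the groups compared, inhibitor alone gave 0 members and 0 genes in both directions, and inhibitor with acetate 1 member higher (1201 and 1487 genes); the difference could not be fitted. Upper-quartile scaling gave 1 member higher in acetate alone (3074 and 4748 genes), inhibitor alone and inhibitor with acetate. A minimum of 10 counts gave 1 in acetate alone (3129 and 3666 of the genes it kept) and inhibitor with acetate. DESeq2 size factors or no filter gave 1 in inhibitor alone. The main fit had 2 higher in acetate alone (3575 and 4139 genes), 2 in inhibitor alone and 0 in inhibitor with acetate, so the last comparison gained a call.

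Leaving out 1 library at a time, members higher with acetate alone were 1 to 3, members lower with acetate and inhibitor 0 to 2 (all genes 1245 to 2894 higher, 1877 to 3616 lower), genes of the difference 2 to 260 higher and 0 to 745 lower, members higher with inhibitor alone 0 to 2 (134 to 1000 and 60 to 630 genes) and with inhibitor and acetate 0 to 1 (97 to 598 and 90 to 883 genes).

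Replicate numbers did not pair the samples: same-numbered libraries had correlated deviations of -0.65 to 0.38 (median -0.097; 6 of 21 over 0.1). With a replicate block, inhibitor alone gave 0 members higher (321 genes; adjusted p = 0.0513 for Crebbp and 0.0809 for Kat8), inhibitor with acetate 234 and 282 genes, and Kat7 missed the threshold with acetate alone (adjusted p = 0.0502); it changed no other member call. Kat2b, at 86 to 277 counts, is limited most by depth.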
